A study of Macaca mulatta with 24 samples.

Results

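Messenger RNA levels of 10 genes of the NF-kappaB pathway were followed in the nucleus accumbens core (NAcc) of 24 rhesus macaques that drank ethanol or did not. The genes are the transcription factor subunits NFKB1, NFKB2, RELA and RELB, the inhibitors NFKBIA and TNFAIP3, the kinases IKBKB and CHUK, and the adaptors MYD88 and TRAF6. They were taken by gene symbol from the deposited table of 17208 symbols, and all 10 were found in it. All 10 also passed the filter for testing, an average of 1 TPM or more across the animals, as did 13637 genes in all. TPM is a transcript level scaled for gene length and to a fixed total in each animal, so it is a share of the RNA and not an amount. The members were chosen for their pathway, with earlier results of these data known.

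The animals were adult male rhesus macaques (Macaca mulatta). Drinkers were first induced to drink by scheduled delivery of food pellets, and then chose between ethanol and water for 22 hours a day over 12 months, with no imposed abstinence before the tissue was taken. The 8 controls went through the same schedule with water on both spouts and were given a maltose dextrin solution to match calories. By their own intake the drinkers fell into 8 LD animals (low and binge drinkers, 0.47 to 2.07 g/kg of ethanol a day), 4 HD animals (heavy drinkers, 2.74 to 3.09 g/kg) and 4 VHD animals (very heavy drinkers, 3.09 to 3.78 g/kg). HD and VHD together are called HD*. Drinking category was not assigned by the experimenter, so what differed between the animals beforehand and what drinking did cannot be told apart. Each animal gave 1 library of dissected tissue that holds many cell types. In such tissue, fewer cells of a type and less RNA per cell cannot be told apart.

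NF-kappaB is a family of paired transcription factors that wait in the cytoplasm, held there by inhibitors of the IkB family. When a receptor for a cytokine or a microbial product is engaged, adaptors such as MYD88 and TRAF6 bring the IkB kinases into action, the inhibitor is phosphorylated and destroyed, and the freed factor enters the nucleus. There it switches on inflammatory and survival genes, among them those of its own inhibitors NFKBIA and TNFAIP3, which close the loop. In brain the pathway is best known from microglia, astrocytes and endothelium, while neurons use it too. Much of its regulation is by phosphorylation, degradation and movement of proteins, none of which an mRNA level measures.

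Animals came from 4 cohorts, and the groups were not spread evenly over them. The 8 controls came from cohorts 5 (3 animals), 7a (2) and 7b (3), the LD animals from cohorts 4 (2), 7a (3) and 7b (3), and the HD* animals from cohorts 5 and 7a, 4 from each. The totals of the columns are fixed, so depth is unknown and no counting error can be given. Genes that mark striatal medium spiny neurons (a list that includes PPP1R1B, DRD1, DRD2 and PENK) were present in every animal, as the dissection implies, with a summed level of 2484 to 10845 TPM in 23 animals. The exception was Control 6, with a sum of 719 TPM, and there PPP1R1B, DRD1, DRD2 and PENK were each at their lowest of the 24 animals. Control 6 also had the highest summed oligodendrocyte markers, at 9138 TPM. The libraries of VHD 3, VHD 4, LD 5 and Control 8 had a lower median TPM over the genes tested (12.7 to 16.4, against 18.0 to 22.0 in the other 20), and a larger share of ribosomal protein transcripts (15.4 to 18.1%, against 7.60 to 12.8%). Of the 10 members, 6 had their lowest level in VHD 4 and 3 had their highest level in Control 6. Of the blood cell markers, S100A8 was listed at 0 in 18 animals and MS4A1 in 11, while CD3D had a median of 18.5 TPM.

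NFKBIA (IkB-alpha, which holds RELA-containing dimers in the cytoplasm) was the most abundant member, at 43.9 TPM averaged over the 24 animals. RELA (p65, the subunit that activates transcription) followed at 30.9 TPM, IKBKB (IKK-beta, the kinase of the canonical branch) at 23.5 TPM, and CHUK (IKK-alpha, which also serves the noncanonical branch) at 14.4 TPM. MYD88, the adaptor of Toll-like and interleukin-1 receptors, stood at 9.80 TPM and TRAF6, the ubiquitin ligase next to it in the signal, at 8.72 TPM. NFKB2 (the p100 precursor of p52) stood at 5.73 TPM, NFKB1 (the p105 precursor of p50) at 5.50 TPM, TNFAIP3 (A20, which trims ubiquitin chains and shuts signalling down) at 3.91 TPM and RELB, the partner of p52, at 3.82 TPM. The upper part of this order held in nearly every animal: NFKBIA exceeded RELA and IKBKB exceeded CHUK in 24 of 24 animals, and RELA exceeded IKBKB in 22. CHUK exceeded MYD88 in 21 animals, TRAF6 exceeded NFKB2 in 22 and NFKB1 exceeded TNFAIP3 in 24. The 3 other neighbours in the order were not consistently ordered, since MYD88 exceeded TRAF6 in 15 of 24 animals, NFKB2 exceeded NFKB1 in 14, and TNFAIP3 exceeded RELB in 11.

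Variation between animals was modest. The coefficient of variation ran from 13.7% for IKBKB to 25.5% for MYD88, where the median of all genes tested was 23.6%. Only MYD88 among the 10 lay above that median. The ratio of the highest to the lowest animal ran from 1.70 for IKBKB to 3.20 for TRAF6. The plot of levels by animal shows the same genes by drinking group.

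**Figure D1:**
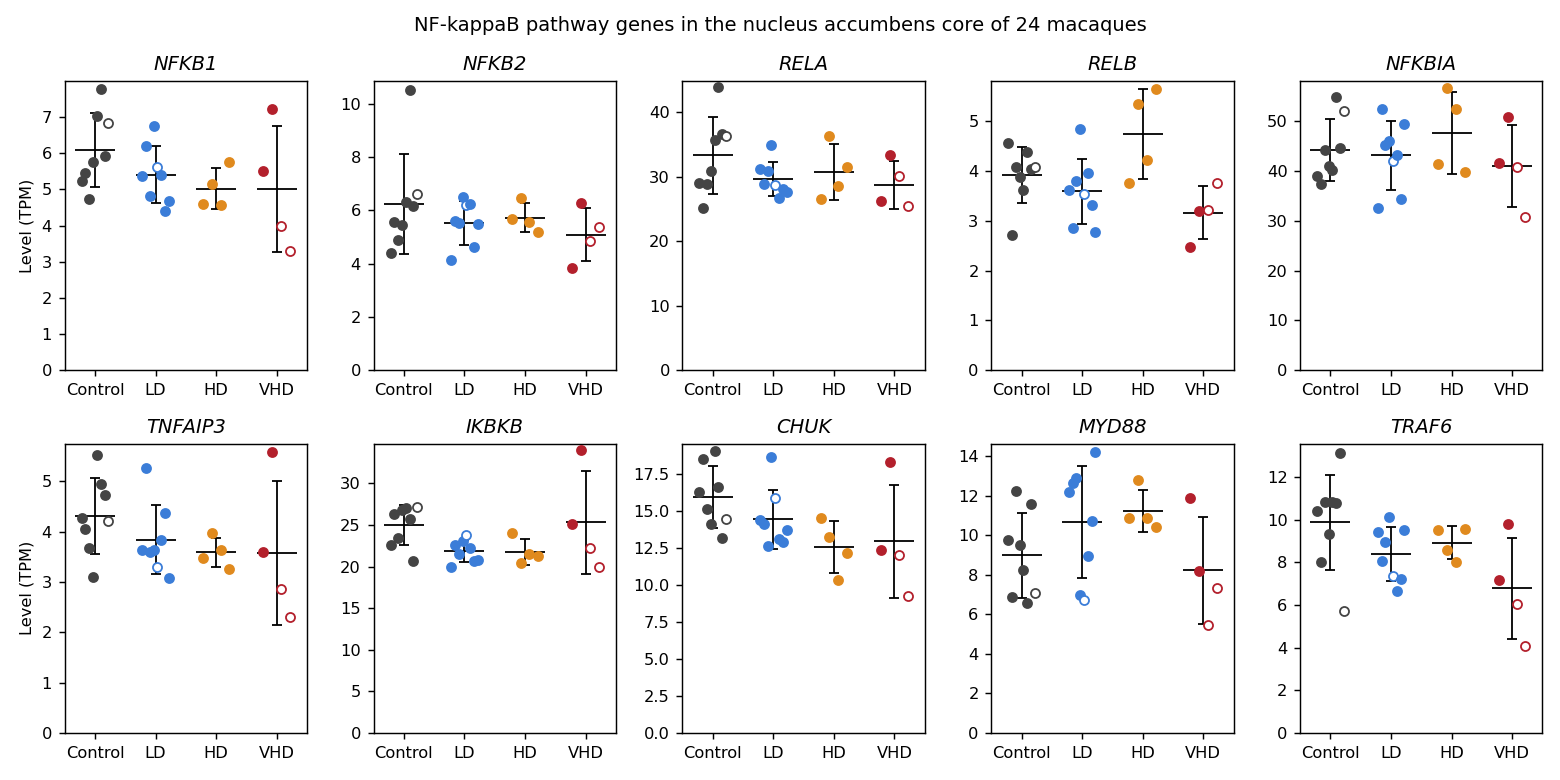
Level in TPM (y axis, from 0) of each NF-kappaB pathway gene in every animal, by group (x axis: 8 controls, 8 LD, 4 HD and 4 VHD animals), with the mean and SD as bars; open points are the 4 libraries of low median TPM. The groups overlapped for every gene, Control 6 stood alone for NFKB2 at 10.5 TPM and VHD 2 for IKBKB at 34.0 TPM.

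The first comparison asked whether heavy drinking went with a different level of these genes in the NAcc, HD* against controls. For 9 of the 10 the mean of log2(TPM + 1) was lower in HD* animals. Means are counted as higher or lower on that scale throughout. The median difference was -0.15, but none passed an adjusted p of 0.05 (limma, Benjamini-Hochberg over the 13637 genes). Beside the adjusted p of that model, the p given for a single gene is from a two-sided exact permutation test of the animals, with no adjustment over the genes named. That background itself leaned the same way: 77.8% of all genes tested were lower in HD* animals and their median difference was -0.12. None of the 13637 genes passed the adjusted threshold (0%) in limma on log2(TPM + 1). The paper used a count model (DESeq2) on the reads of these groups. It reported genes past an FDR of 0.05 in this comparison, higher and lower, and a few in HD* against LD. At an unadjusted p under 0.05 in limma, 5.29% of all genes were lower and 0.396% higher, and among the members 1 was lower and 0 were higher. No gene at all, and so no member, had HD* animals entirely above or below the controls (0%). The 721 lower genes behind the 5.29% became 274 without VHD 4 and 2031 without VHD 2. Rescaling by trimmed means of log ratios (TMM) brought the median of all genes to 0.00093 and that of the members to -0.027, and it turned the differences of RELB, NFKBIA and IKBKB to the higher side. Of all genes, 310 were then higher and 206 lower at the unadjusted threshold, in place of 54 and 721.

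CHUK was the member lower at an unadjusted p under 0.05. In controls it ranged from 13.2 to 19.0 TPM with a median of 15.7. The 4 HD animals had 14.5, 13.2, 10.3 and 12.2 TPM, and the VHD animals 12.3, 18.3, 12.0 and 9.23 TPM. Thus 5 of the 8 HD* animals lay below every control, and VHD 2 lay among the highest controls. The difference was -0.31 (SE 0.12, 95% interval -0.55 to -0.076, exact permutation p = 0.0188, adjusted p = 0.706 in limma), from 15.9 ± 2.09 TPM in controls to 12.8 ± 2.76 TPM in HD* animals (mean ± SD, n = 8 each). Relative to the median of all genes the difference was -0.19. It stayed negative in all alternative analyses, between -0.19 and -0.33, and had an unadjusted p under 0.05 in 8 of those 11. The exceptions were TMM rescaling (-0.19), cohorts 5 and 7a alone (-0.25), and the analysis without the 4 libraries of low median TPM and Control 6 (-0.24).

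IKBKB, its partner in the kinase complex, differed by -0.094 (95% interval -0.29 to 0.10, exact permutation p = 0.361). Controls ranged from 20.7 to 27.1 TPM with a median of 26.0. Of the HD animals, the values were 23.98, 20.4, 21.5 and 21.3 TPM, and of the VHD animals 25.1, 34.0, 22.2 and 20.0002 TPM. Apart from VHD 2, which was above every other animal, all HD* animals lay below the control median, and without VHD 2 the difference was -0.17.

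Among the transcription factor subunits, NFKB1 had the largest difference, -0.25 (95% interval -0.50 to 0.0023, exact permutation p = 0.0640, adjusted p = 0.706 in limma). Its level was 6.09 ± 1.03 TPM in controls and 5.01 ± 1.20 in HD* animals. The HD animals had 4.60, 5.16, 4.56 and 5.76 TPM and the VHD animals 5.52, 7.22, 3.98 and 3.30 TPM, against 4.73 to 7.77 TPM in controls. The HD animals lay close together, HD 1 and HD 3 below every control and the others within the control range. The VHD animals held both the lowest level of all 24 and the highest of the drinkers. In all, 4 of the 8 HD* animals lay below every control. NFKB2 and RELA differed by -0.15 each (exact permutation p = 0.310 and 0.189). For NFKB2 the control range ended in the single value of Control 6, 10.5 TPM, the other 7 controls lying between 4.41 and 6.62 TPM. Without Control 6 the difference was -0.050 for NFKB2 and -0.090 for RELA. For RELA, 6 of 8 HD* animals lay below the control median of 33.3 TPM, and none below the lowest control. RELB differed by -0.011 (95% interval -0.27 to 0.25), with 2 HD* animals above and 1 below all controls.

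Of the inhibitors, whose genes NF-kappaB itself induces, NFKBIA was at 44.2 ± 6.27 TPM in controls and 44.3 ± 8.42 in HD* animals. Its difference was -0.0068 with a 95% interval of -0.25 to 0.24. TNFAIP3 was at 4.31 ± 0.76 TPM in controls and 3.58 ± 0.96 in HD* animals, a difference of -0.22 (95% interval -0.48 to 0.033, exact permutation p = 0.0951, adjusted p = 0.706 in limma). Its HD values of 3.48, 3.96, 3.63 and 3.26 TPM and 3 of its VHD values (3.60, 2.86 and 2.30 TPM) lay below the control median of 4.24 TPM. VHD 2, at 5.57 TPM, lay above all controls.

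The adaptors parted. TRAF6 differed by -0.31 (95% interval -0.62 to 0.013, exact permutation p = 0.102, adjusted p = 0.706 in limma), from 9.89 ± 2.23 TPM in controls to 7.86 ± 2.00 TPM in HD* animals. The HD values were 9.55, 8.60, 8.02 and 9.59 TPM and the VHD values 7.20, 9.79, 6.05 and 4.10 TPM, all 8 below the control median of 10.6 TPM. The control range still covered 7 of them. It covered VHD 1 and VHD 3 only because Control 8 had 5.72 TPM, the next lowest control having 8.00 TPM. Over the 24 animals TRAF6 correlated with the median TPM of its library at r = 0.86, and 88.9% of all genes had a lower r. The libraries of VHD 3, VHD 4 and Control 8 are among the 4 of low median, without which r was 0.62. Without those 4 libraries the difference was -0.23, and without VHD 4 alone -0.20. MYD88 was the member with a higher mean of log2(TPM + 1) in HD* animals, by 0.096 (95% interval -0.26 to 0.45, exact permutation p = 0.575). Its sign turned with cohort as a covariate and with striatal neuron markers as a covariate. In TPM, RELB (3.92 in controls, 3.96 in HD* animals) and NFKBIA (44.2 and 44.3) also had slightly higher means.

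**Figure D2:**
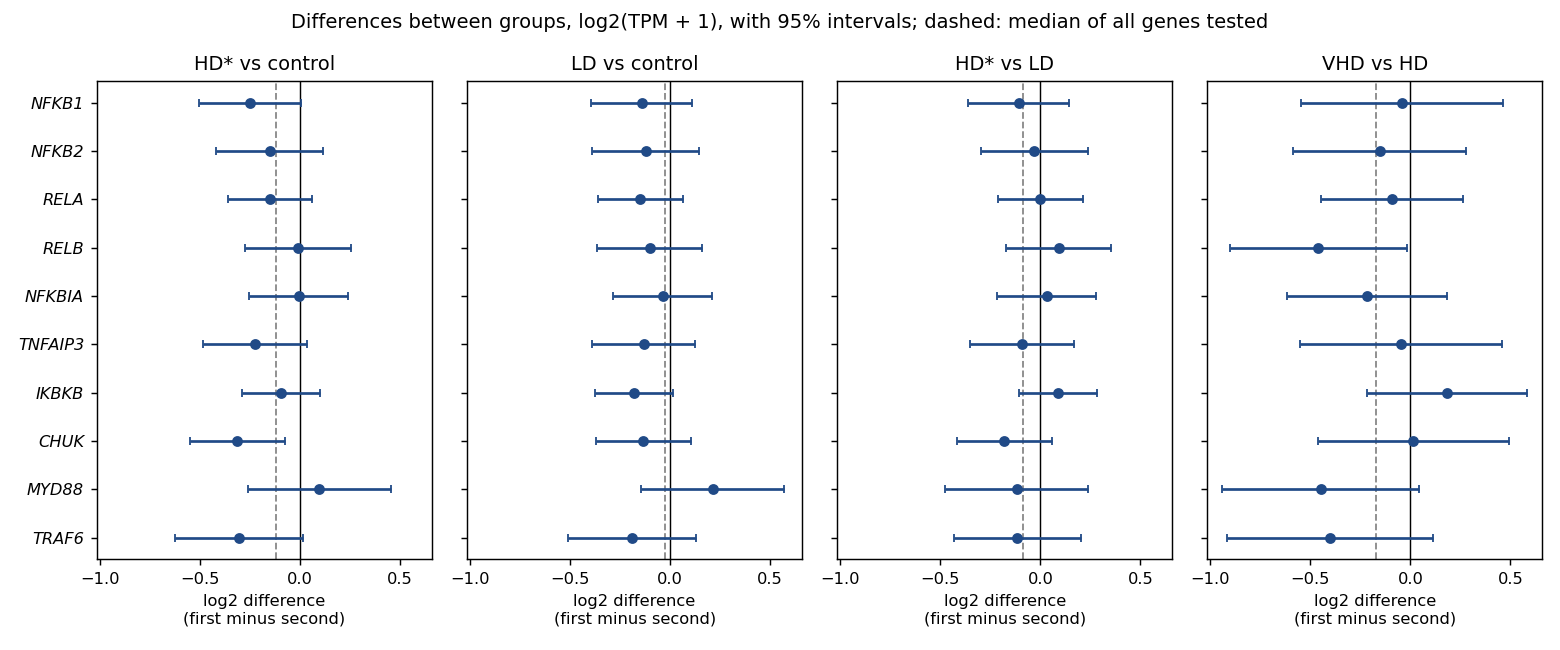
Difference in mean log2(TPM + 1) between groups (x axis, first group minus second) for each gene (y axis), with 95% intervals from limma, in 4 comparisons; the dashed line is the median over all 13637 genes tested. Intervals exclude 0 for CHUK in HD* against controls and for RELB in VHD against HD, and for no other gene shown.

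The HD* difference could be measured within a cohort only in cohorts 5 and 7a. In cohort 5 (4 HD* animals, 3 controls) 7 of the 10 genes had a higher mean in HD* animals, and in cohort 7a (4 HD* animals, 2 controls) 9 had a lower one. CHUK was lower in both, by -0.19 in cohort 5 and -0.32 in cohort 7a, and TRAF6 likewise by -0.14 and -0.35. NFKB1 was 0.096 higher in cohort 5 and -0.47 lower in cohort 7a, RELA 0.13 and -0.33, NFKBIA 0.23 and -0.25, and TNFAIP3 0.029 and -0.46. The median of all genes was -0.060 and -0.12 in the same cohorts. Cohort 7a holds 3 of the 4 libraries of low median TPM, those of VHD 3, VHD 4 and Control 8. A test of the difference between the cohorts gave no call, with the adjusted p of all members at 0.99985 (limma, interaction of HD* with cohort). The largest difference between the cohorts was that of NFKB1, at -0.56 (SE 0.30). Of all genes, 0% passed the adjusted threshold in that test and 2.16% an unadjusted p under 0.05, and of the members 0 did.

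**Figure D3:**
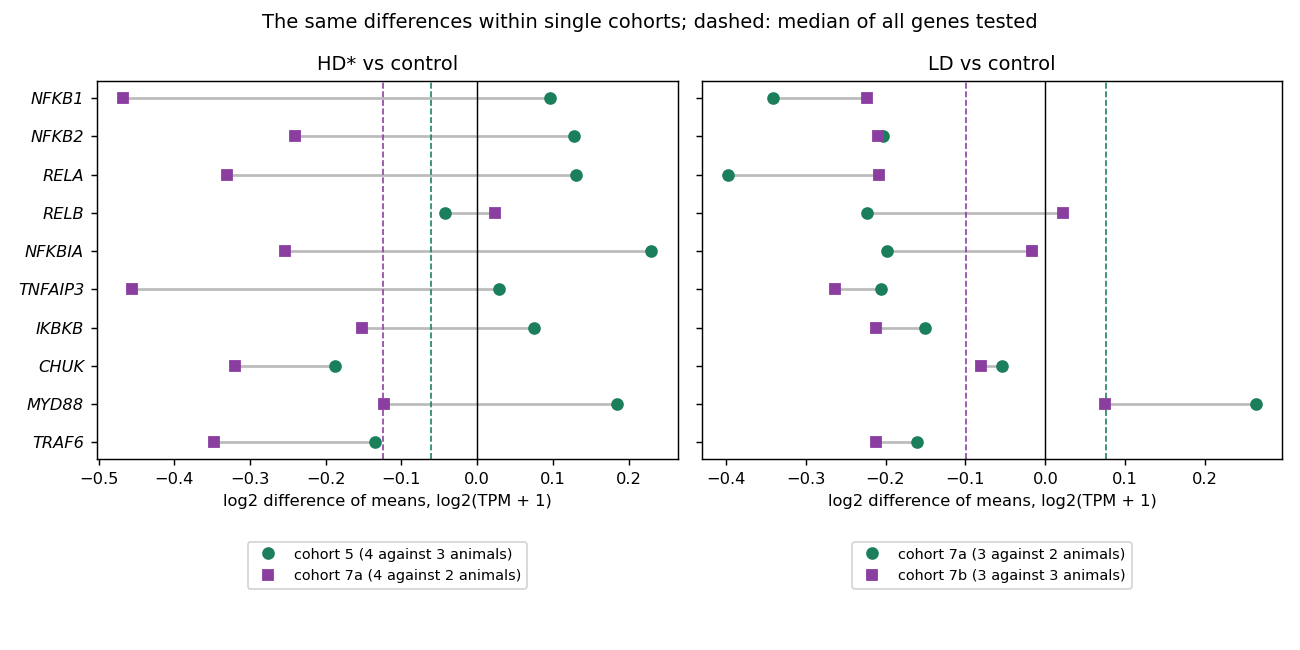
Difference in mean log2(TPM + 1) (x axis) of each gene (y axis) within single cohorts, for HD* against controls in cohorts 5 and 7a and for LD against controls in cohorts 7a and 7b; dashed lines are the medians of all genes tested in that cohort. HD* differences lay to both sides of 0 in cohort 5 and almost all below 0 in cohort 7a, while CHUK and TRAF6 were below 0 in both.

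The cohort itself was tested as a term beside the groups. CHUK was the member with an unadjusted p under 0.05 (adjusted p = 0.540, limma F test), which was lost with any one of HD 1, HD 3, VHD 2, VHD 4, LD 4 or Control 7 left out, at a background of 8.36% of all genes and of 0% at the adjusted threshold. Its mean was 14.2 TPM in cohort 4, 15.5 in cohort 5, 12.3 in cohort 7a and 16.2 in cohort 7b. With cohort in the model the HD* difference of CHUK was -0.26 (adjusted p = 0.766, limma).

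The second comparison set LD animals, the low and binge drinkers, against the same controls, so its values are not independent of the first. Again 9 of the 10 genes had a lower mean, with a median difference of -0.13, beside -0.025 over all genes. None passed an adjusted p of 0.05 (all at 0.9999, limma), as for all genes (0%). No member passed an unadjusted p under 0.05 in limma either, where 2.54% of all genes were lower and 0.293% higher. TMM rescaling turned the sign of NFKBIA, and of all genes 160 were then higher and 224 lower at that threshold, in place of 40 and 347. IKBKB had the smallest p, at a difference of -0.18 (95% interval -0.38 to 0.013, exact permutation p = 0.00932, adjusted p = 0.9999 in limma), from 25.0 ± 2.41 TPM in controls to 21.8 ± 1.30 TPM in LD animals. All 8 LD animals lay below the control median of 26.0 TPM, and 7 of the 8 within the range of the controls. The interval takes its spread from all 24 animals, HD* included, where the permutation test takes it from controls and LD animals alone. The permutation also did not keep the cohorts apart. With TMM rescaling the difference was -0.14, with cohort as a covariate -0.14, and in cohorts 7a and 7b alone -0.18. In limma an unadjusted p under 0.05 was reached in 2 of 11 alternative analyses, and in 1 of 16 that left out an animal. For TRAF6, too, all 8 LD animals were below the control median, at 6.66 to 10.1 TPM, with a difference of -0.19 (exact permutation p = 0.179). No gene had LD animals entirely above or below the controls (0%). Without Control 6 the differences of NFKB2 and RELA from controls were -0.021 and -0.091, in place of -0.12 and -0.15. MYD88 was again the member with a higher mean, 10.7 ± 2.82 TPM in LD animals and 8.99 ± 2.17 TPM in controls, a difference of 0.21 (95% interval -0.14 to 0.57, exact permutation p = 0.229). Its LD values fell into a lower part (6.75, 6.98 and 8.94 TPM) and an upper part from 10.7 to 14.2 TPM. Within cohorts 7a and 7b, the cohorts that hold both groups, NFKB1 was lower in LD animals by -0.34 and -0.22, RELA by -0.40 and -0.21, and IKBKB by -0.15 and -0.21, while MYD88 was 0.26 and 0.075 higher. The medians of all genes in those cohorts were 0.076 and -0.10.

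The third comparison asked whether heavy drinkers differed from the low and binge drinkers. HD* against LD gave 4 higher and 6 lower means, with a median of -0.061, where the median of all genes was -0.084. None passed either threshold, beside 0% of all genes at the adjusted one and 0.330% higher and 0.748% lower at the unadjusted one (45 and 102 genes, and 113 and 76 with TMM, which turned the sign of NFKB2). CHUK had the smallest p, with a difference of -0.18 (95% interval -0.42 to 0.057, exact permutation p = 0.143). RELA was level, with a difference of 0.00021 and a 95% interval of -0.21 to 0.21. Groups that do not overlap were found for 0.00733% of all genes and for no member. Intake in g/kg a day, taken as a continuous measure over the 16 drinkers, gave slopes from -0.12 for MYD88 to 0.060 for IKBKB on the log2 scale per g/kg. None of these 10 slopes had an unadjusted p under 0.05, the smallest by 100000 permutations of intake being 0.223, for TNFAIP3 (0.252 for MYD88). By limma 5.16% of all genes fell and 1.49% rose with intake at that threshold and 0% passed the adjusted one. The median slope was -0.039 over the members and -0.068 over all genes. With TMM 451 genes rose and 458 fell with intake at that threshold, in place of 203 and 704, and the slopes of NFKB2, RELA and NFKBIA turned positive. As LD and HD* animals do not overlap in intake, the slope is in part the difference between those groups.

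VHD against HD compared 4 with 4 animals inside HD*, with cohorts 5 and 7a each giving 2 HD and 2 VHD animals. Here 14.6% of all genes passed an adjusted p of 0.05 (441 higher and 1556 lower, and 1065 and 1583 with TMM), and 24.6% were lower and 8.08% higher at an unadjusted p under 0.05. The smallest p that an exact permutation of 4 against 4 animals allows is 0.0286. No member passed the adjusted threshold. RELB was lower at an unadjusted p under 0.05 in limma. HD animals had 3.75, 5.35, 4.23 and 5.65 TPM and VHD animals 2.47, 3.21, 3.21 and 3.76 TPM. All VHD animals lay below the HD median and 3 below every HD animal, so the groups overlapped, as they did for every member, while 23.3% of all genes did not overlap. The difference was -0.46 (SE 0.20, 95% interval -0.90 to -0.019, exact permutation p = 0.0571, adjusted p = 0.138 in limma), and within the cohorts it was -0.52 (cohort 5) and -0.40 (cohort 7a). MYD88 was 10.9, 12.8, 10.9 and 10.4 TPM in HD animals and 11.9, 8.21, 5.48 and 7.35 TPM in VHD animals, a difference of -0.45 (exact permutation p = 0.114, adjusted p = 0.187 in limma). TRAF6 differed by -0.40 (exact permutation p = 0.171, adjusted p = 0.257 in limma), by -0.098 in cohort 5 and -0.70 in cohort 7a. In cohort 7a both VHD libraries were of low median TPM, and without them the TRAF6 difference was -0.077 and the MYD88 difference -0.17, while that of RELB was -0.57. NFKB1, TNFAIP3 and IKBKB were higher in VHD animals of cohort 5 (0.32, 0.22 and 0.39) and lower in those of cohort 7a (-0.41, -0.32 and -0.022). TMM rescaling turned NFKB1, RELA and TNFAIP3 to the higher side over both cohorts.

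The same split separated the animals by the summed markers of some cell types and not of others. Summed striatal neuron markers were 8435 to 9970 TPM in HD and 3107 to 5790 TPM in VHD animals, without overlap, and 7 markers of the list were lower in VHD animals at an adjusted p under 0.05 (limma). Summed microglia markers were 384 to 493.1 TPM in HD and 499 to 865 TPM in VHD animals, and astrocyte markers 1769 to 3253 and 3917 to 6570 TPM. Of the 10 microglia markers 8 had a higher and 2 a lower mean in VHD animals. The sums overlapped for endothelium (130 to 145 and 95.4 to 139 TPM), oligodendrocytes (2323 to 3951 and 2271 to 4813 TPM) and blood cells (44.4 to 85.8 and 18.8 to 58.5 TPM). With the neuron markers as a covariate, which nearly coincides with the groups in these 8 animals, RELB differed by -0.59 (adjusted p = 0.237, limma), MYD88 by -0.37 (adjusted p = 0.516) and TRAF6 by -1.24 (adjusted p = 0.0339).

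The rest of the pathway was described from a list of 69 further receptors, adaptors, kinases, IkB proteins and brakes, 68 of them in the table and 59 at 1 TPM or more on average. REL, the fifth subunit of the family, averaged 0.91 TPM and was not tested. Of the IkB family and kinases, IKBKG (NEMO, the scaffold of the kinase complex) averaged 28.5 TPM, NFKBIB 20.1 TPM, MAP3K14 (NIK, the noncanonical kinase) 16.05 TPM, MAP3K7 (TAK1) 10.6 TPM, BCL3 5.10 TPM and NFKBIZ 1.59 TPM. TNFRSF1A, the main receptor of tumour necrosis factor, averaged 29.4 TPM, TLR4, the endotoxin receptor, 9.32 TPM, and IL1R1, the interleukin-1 receptor, 1.65 TPM. Of the signal carriers, CYLD (a deubiquitinase that opposes the pathway) averaged 25.3 TPM, IRAK1 19.0, BIRC2 17.4, TRAF2 13.0, TRAF3 10.5, RIPK1 4.78 and IRAK4 2.67 TPM.

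In HD* animals 49 of these 59 genes had a lower mean than in controls and 10 a higher one, with a median of -0.16, close to the -0.15 of the 10 members and the -0.12 of all genes. At an unadjusted p under 0.05 in limma, 4 of the 59 were lower and 0 higher, close to the 5.29% and 0.396% of all genes, and none passed the adjusted threshold. IRAK4, the kinase that MYD88 recruits, differed by -0.37 (exact permutation p = 0.0278), from 3.23 ± 0.47 to 2.37 ± 0.94 TPM. TRAF3, which restrains the noncanonical branch, differed by -0.38 (exact permutation p = 0.0340), and TIRAP, the adaptor that brings MYD88 to some Toll-like receptors, by -0.31 (exact permutation p = 0.0252). The fourth, TLR7, a receptor of single-stranded RNA, differed by -0.27 (exact permutation p = 0.05) and was chosen after its values were seen. In LD animals 42 of 59 had a lower mean, beside 58.1% of all genes. At the unadjusted threshold 3 of the 59 were lower, where 2.54% of all genes were, all 3 with an adjusted p of 0.9999 in limma. These were IRAK4 at -0.33 (exact permutation p = 0.0186), NFKBIB at -0.19 (exact permutation p = 0.0171) and NLRC5, an inhibitor of the IkB kinases, at -0.40 (exact permutation p = 0.00606). HD* against LD had 1 such gene among the 59, beside 0.330% higher and 0.748% lower of all genes. This was LTBR, the lymphotoxin receptor, at 0.31 (exact permutation p = 0.0549, adjusted p = 0.937 in limma; chosen after its values were seen).

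Genes that NF-kappaB is known to induce were taken as a second list of 28, 27 of them in the table and 21 at 1 TPM or more. Cytokine transcripts were scarce. IL6 was listed at 0 in 5 animals and at no more than 0.24 TPM in the others, TNF averaged 0.39 TPM, CCL2 1.63 TPM and IL1B 1.99 TPM. For TNF, CCL2 and IL1B the highest of the 24 animals was VHD 4, at 1.66, 10.3 and 6.201 TPM. More abundant were BCL2L1 (a survival gene) at 113 TPM, SOD2 (mitochondrial superoxide dismutase) at 108 TPM, GADD45B at 33.9 TPM and ICAM1 (an adhesion molecule) at 4.98 TPM. Of the 21, 14 had a lower and 7 a higher mean in HD* animals than in controls, with a median of -0.063. Of all genes 77.8% were lower, with a median of -0.12. At an unadjusted p under 0.05 in limma 2 of the 21 were lower and 0 higher, beside 5.29% and 0.396% of all genes. CFLAR, which blocks caspase-8, had the smallest p of both lists, at 14.7 ± 4.26 TPM in controls and 9.05 ± 2.34 in HD* animals, a difference of -0.63 (SE 0.18, exact permutation p = 0.00637, adjusted p = 0.706 in limma). VCAM1, another adhesion molecule, went from 4.27 ± 1.67 to 2.38 ± 1.11 TPM, a difference of -0.64 (exact permutation p = 0.0152). In LD animals 1 of the 21 was lower and 0 higher at that threshold, beside 2.54% and 0.293% of all genes. It was CSF1, a growth factor of microglia, at -0.37 (exact permutation p = 0.0704).

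Between VHD and HD, 6 of the 59 pathway genes passed an adjusted p of 0.05, beside 14.6% of all genes. BCL3, a nuclear IkB protein that works with p50 and p52 and is also among the targets, had 7.46, 6.22, 7.90 and 6.99 TPM in HD animals and 3.42, 1.71, 2.80 and 3.37 TPM in VHD animals. Its difference was -1.11 (SE 0.21, adjusted p = 0.0090, limma). TICAM1 (TRIF, the adaptor of TLR3 and TLR4) differed by -0.80 (adjusted p = 0.0426), BTRC (the ubiquitin ligase subunit that recognises phosphorylated IkB) by -0.86 (adjusted p = 0.0272), and the brakes TOLLIP by -0.57 (adjusted p = 0.0270) and CYLD by -0.79 (adjusted p = 0.0491). COMMD1, which promotes removal of RELA from chromatin, was 98.2 ± 8.29 TPM in VHD and 71.1 ± 5.36 TPM in HD animals, a difference of 0.46 (adjusted p = 0.0333, limma). For all 6 genes the HD and VHD animals did not overlap, as for 23.3% of all genes, and the same 8 animals gave the calls. The exact permutation p of each is then the smallest possible, 0.0286. With all 24 animals in the model none of the 6 passed, their adjusted p running from 0.055 to 0.081. Over all animals BCL3 correlated with the summed striatal neuron markers at r = 0.57, CYLD at r = 0.61 and COMMD1 at r = -0.27. With these markers as a covariate the BCL3 difference was -0.31 (adjusted p = 0.438, limma). TOLLIP, BTRC, COMMD1 and TICAM1 kept an unadjusted p under 0.05 (limma) in all 9 alternative analyses, this covariate among them. CYLD did so in 8 of 9. Without the libraries of low median TPM, BCL3 alone of the 6 passed (-1.23, adjusted p = 0.0322, limma). That fit lacked VHD 3 and VHD 4 and set VHD 1 and VHD 2, both of cohort 5, against the HD animals of both cohorts.

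How the 10 genes moved together was described by Pearson's r of log2(TPM + 1) over the 24 animals, with no test, since all values of an animal share 1 library and 1 total. Of 45 pairs, 36 were positive, the median r was 0.34, and 14 exceeded 0.5. The same was not worked out for pairs of other genes. These values therefore do not show that the members were more alike than other genes are. The closest pairs were NFKB1 with TNFAIP3 (r = 0.73, rho = 0.57), NFKB1 with CHUK (r = 0.72, rho = 0.60), NFKB1 with RELA (r = 0.69) and NFKB2 with RELA (r = 0.68). Without the 2 animals farthest from the median these were 0.60, 0.61, 0.55 and 0.43. Both kinases correlated at r = 0.63, and RELA with its inhibitor NFKBIA at r = 0.52. MYD88 had a negative r to NFKB1, NFKB2, RELA, RELB, IKBKB and CHUK, the lowest being -0.42 with IKBKB. Its r was -0.19 with RELA and -0.027 with RELB, and 0.066 and 0.19 after group and cohort means were removed. RELB also had a negative r to IKBKB (-0.25), TNFAIP3 and CHUK (-0.054 each).

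Over all genes tested, those most like each member were DPF3 (r = 0.93) and TMTC4 (r = 0.91) for NFKB1, SLC4A2 (0.88) and PPP1R13L (0.87) for NFKB2, CYP27A1 and DNM2 (0.90 each) for RELA, and CD151 (0.71) and CCR10 (0.70) for RELB. For the inhibitors they were RHOB (0.77) and DDIT4 (0.76) with NFKBIA, and FAM13A and DCHS1 (0.88 each) with TNFAIP3. IKBKB was closest to PDLIM5 (0.87) and CCDC15 (0.86), CHUK to HAUS2 (0.92) and PCGF5 (0.91), MYD88 to PCGF2 (0.90) and PPP2R5D (0.89), and TRAF6 to TARSL2 and ZNF532 (0.94 each). No member was among the 2 closest of another, and RELB had the lowest values of this kind.

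**Figure D4:**
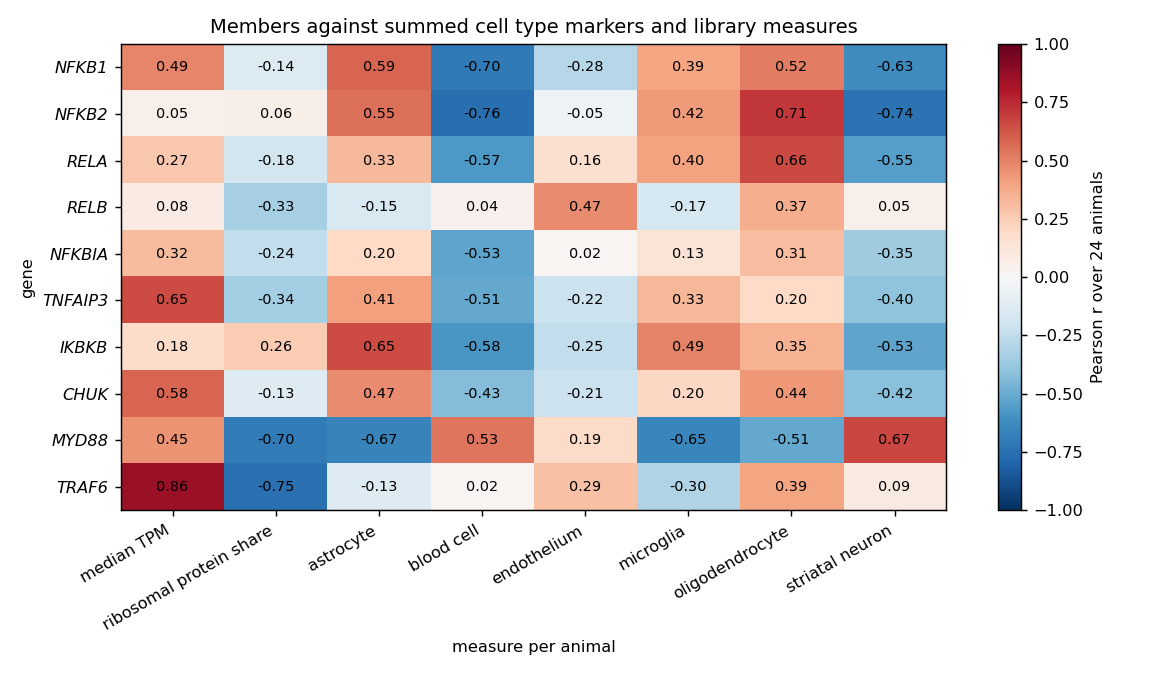
Pearson's r over 24 animals between log2(TPM + 1) of each gene (rows) and the log2 of summed cell type markers, the median TPM of the library or the share of ribosomal protein transcripts (columns); red is positive, blue negative. MYD88 has the opposite sign to NFKB1, NFKB2, RELA and IKBKB for striatal neuron, astrocyte, microglia and oligodendrocyte markers.

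Members were also set against summed markers of cell types. With striatal neuron markers, MYD88 had r = 0.67 (rho = 0.67), while NFKB2 had r = -0.74, NFKB1 -0.63, RELA -0.55 and IKBKB -0.53. The values of NFKB2 and RELA leaned on Control 6, and without it were -0.48 and -0.26, whereas those of MYD88 and IKBKB were 0.69 and -0.59. With astrocyte markers the order turned, at r = 0.65 for IKBKB, 0.59 for NFKB1, 0.55 for NFKB2 and -0.67 for MYD88. With oligodendrocyte markers r was highest for NFKB2 (0.71) and RELA (0.66), and without Control 6 it was 0.55 and 0.52. Microglia markers gave r = 0.49 for IKBKB and -0.65 for MYD88. Such values were common in these libraries: from the 5th to the 95th percentile of all genes, r with striatal neuron markers ran from -0.74 to 0.75, and 92.0% of genes had a lower r than MYD88. CHUK, the member with the smallest p in HD* animals, had r = -0.42 with striatal neuron markers and 0.58 with the median TPM of the library. With that median TPM the median r of all genes was 0.49, and 57.8% of genes had a lower r than CHUK.

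**Figure D5:**
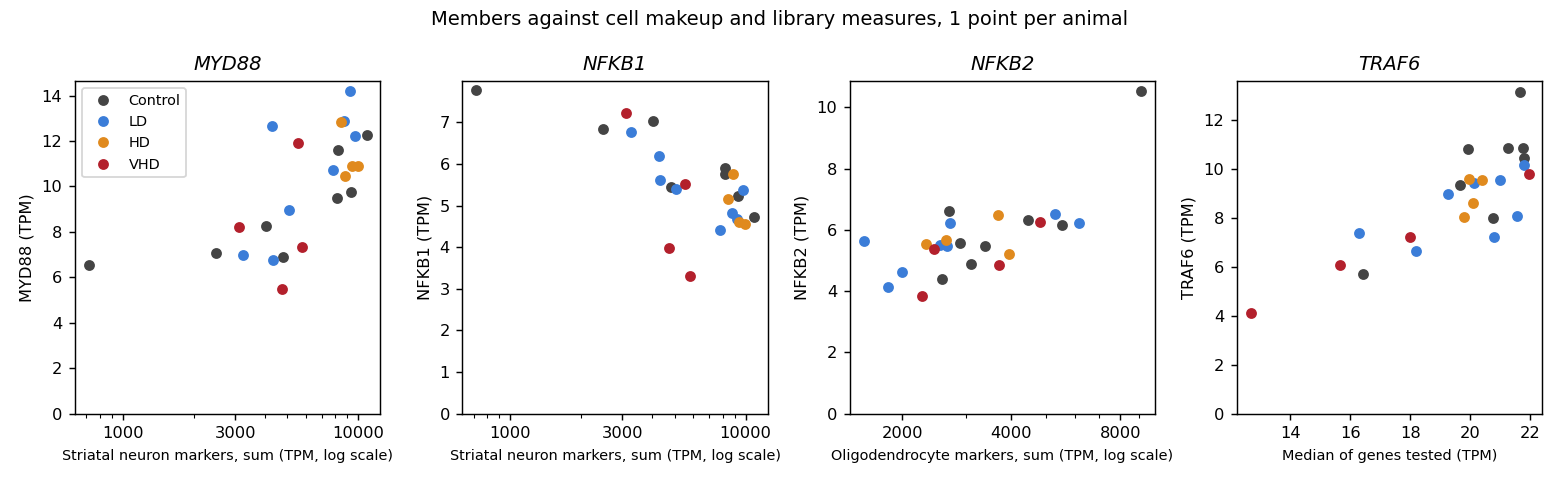
Level in TPM (y axis) of MYD88 and NFKB1 against summed striatal neuron markers, of NFKB2 against summed oligodendrocyte markers (x axes in TPM, log scale), and of TRAF6 against the median TPM of the library (linear x axis), 1 point per animal coloured by group. MYD88 is high where neuron markers are high (r = 0.67) and NFKB1 low (r = -0.63), and Control 6 is the single point at 719 TPM. TRAF6 rises with the median TPM (r = 0.86). It is lowest in VHD 4, Control 8 and VHD 3, of low median, while LD 5, also of low median, has 7.38 TPM.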

How the data were processed

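RNA of the NAcc core of 24 rhesus macaques was sequenced by the authors after polyA selection. Per the labels, STAR 2.5.2b aligned the reads, MacaM was the reference, and HTSeq 0.6.1p1 made the counts. The deposited values are TPM made by the authors, 1 column per animal. How counts became TPM, and with which gene lengths, is not given in the sources used here, and the labels and the paper differ on strand and pairing of the reads. TPM keep no depth, so no counting error is given and count models were not used. Reads that overlapping or antisense genes share cannot be told apart.

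Values were taken as log2(TPM + 1). Changes of weakly expressed genes are understated on that scale. Of the 17208 genes, 13637 averaged 1 TPM or more, and these were compared by limma 3.58.1 under R 4.3.3 (empirical Bayes with a trend, two-sided) and adjusted by the Benjamini-Hochberg method at 0.05. One model over 24 animals with 3 groups (controls, LD, HD*) gave 3 comparisons. VHD against HD used the 8 HD* animals and the intake slope the 16 drinkers. Groups, cohorts and intake come from the labels, and an animal's number only names it. With 1 library per animal, p-values measure the spread between animals. A gene named alone also has a two-sided exact permutation test of the difference in mean log2(TPM + 1), or 100000 permutations for a slope, added after seeing the data. The limma analyses were tested on simulated data. Descriptions used Python 3.11.15, numpy 2.4.6, scipy 1.17.1, pandas 2.3.3 and matplotlib 3.10.9.

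The members, the gene lists and the markers were chosen with earlier results of these data known. Named genes are all members, a fixed set of pathway and target genes, up to 5 listed genes per comparison with the smallest unadjusted p under 0.05 (for HD* or LD against controls and VHD against HD), and the 2 genes closest to each member. Sequences of the genes are not used here. All 10 members matched RefSeq symbols. Of the symbols, 27 had become dates and were kept as they stood. Of the striatal marker list, 1 gene enters the sum but is not reported here, and others of the list are named as examples.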

Additional observations from a re-analysis of the deposited data

Results flagged for a closer look

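NFKB2 and IKBKB each had a value that stood far from the others of their group, in 50 groups of 4 or 8 animals examined, where chance gives about 1 in 20. NFKB2 in Control 6 was 10.5 TPM, where the other 7 controls lay between 4.41 and 6.62 TPM. This is also the control with the lowest summed striatal neuron markers (719 TPM) and the highest summed oligodendrocyte markers (9138 TPM), whose part in the value was not tested. IKBKB in VHD 2 was 34.0 TPM, where the other 7 HD* animals lay between 20.0002 and 25.1 TPM. VHD 2 also had the highest TNFAIP3 of the 24 animals, the highest summed astrocyte markers of HD* animals (6570 TPM) and their lowest summed striatal neuron markers (3107 TPM), and its library was not of low median TPM.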

How the results depend on the processing

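No paired analysis was possible because the groups were made of different animals. Alternatives were a pseudocount of 0.1, a minimum of 10 TPM, no filter, TMM rescaling, cohort as a covariate, another set of animals in the fit (separate intercepts for the slope), array weights, cohorts with both groups alone, and each animal left out. Chosen after seeing the data were leaving out the 4 libraries of low median TPM, those and Control 6, and striatal neuron markers as a covariate. In the HD* and LD comparisons and the intake slope no member passed an adjusted p of 0.05 under any of them. In VHD against HD some did: IKBKB with TMM (0.36, adjusted p = 0.0415), RELB, MYD88 and TRAF6 with array weights (adjusted p = 0.0118, 0.000937 and 0.00963), and TRAF6 with striatal markers (-1.24, adjusted p = 0.0339) and without VHD 2 (adjusted p = 0.0437). Over the alternatives that kept all animals or dropped the 4, adjusted p ran from 0.0415 to 0.555 for IKBKB, 0.0118 to 0.285 for RELB, 0.000937 to 0.599 for MYD88 and 0.00963 to 0.810 for TRAF6.

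Signs turned as follows, and the cause was not tested. Most of these differences were small as reported, but some were not, such as NFKB2 in HD* against controls (-0.15), NFKB1 and TRAF6 in HD* against LD (-0.11 each) and IKBKB in VHD against HD (0.18). With TMM they were, in HD* against controls, 0.097 for RELB, 0.12 for NFKBIA and 0.036 for IKBKB, in LD against controls 0.0090 for NFKBIA, in HD* against LD 0.043 for NFKB2, in VHD against HD 0.099 for NFKB1, 0.083 for RELA and 0.082 for TNFAIP3, and as slopes 0.039 for NFKB2, 0.056 for RELA and 0.055 for NFKBIA. With cohort they were, in HD* against controls, 0.032 for RELB, 0.018 for NFKBIA and -0.00051 for MYD88, in HD* against LD 0.0091 for NFKB1 and 0.079 for NFKB2, and as a slope 0.014 for RELA. Cohorts 5 and 7a alone gave 0.018 for NFKBIA. With array weights they were, in HD* against controls, 0.00095 for NFKB2, 0.13 for RELB and 0.15 for NFKBIA, in HD* against LD 0.10 for NFKB2 and 0.0089 for TRAF6, in VHD against HD -0.052 for CHUK, and as slopes 0.032 for NFKB2, 0.00043 for RELA and 0.084 for NFKBIA. Without the 4 libraries they were, in HD* against controls, 0.036 for RELB and 0.12 for NFKBIA, in HD* against LD 0.018 for NFKB1, 0.011 for NFKB2 and 0.038 for TRAF6, in VHD against HD 0.29 for NFKB1 and 0.26 for TNFAIP3, and as slopes 0.0083 for NFKB1, 0.0057 for RELA and 0.038 for NFKBIA. Without those and Control 6 they were, in HD* against controls, 0.0035 for NFKB2, 0.060 for RELB and 0.18 for NFKBIA, in LD against controls 0.059 for NFKBIA, and in HD* against LD 0.018 for NFKB1, 0.011 for NFKB2 and 0.038 for TRAF6. With striatal markers they were, in HD* against controls, 0.038 for NFKBIA and -0.028 for MYD88, and in VHD against HD -0.42 for IKBKB and -0.82 for CHUK. Separate intercepts gave slopes of -0.055 for RELB and 0.039 for CHUK.

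Leaving out 1 animal moved the HD* difference of RELB between -0.076 and 0.058 and of NFKBIA between -0.060 and 0.063, the LD difference of NFKBIA between -0.080 and 0.016, the HD* against LD difference of NFKBIA between -0.023 and 0.10, of RELA between -0.041 and 0.034 and of NFKB2 between -0.078 and 0.026, the VHD difference of CHUK between -0.15 and 0.15, of NFKB1 between -0.21 and 0.10 and of TNFAIP3 between -0.24 and 0.094, and the slopes of RELB between -0.017 and 0.11, of NFKBIA between -0.057 and 0.046, of NFKB2 between -0.056 and 0.037 and of RELA between -0.030 and 0.012. In HD* against controls CHUK stayed between -0.39 and -0.26, NFKB1 between -0.32 and -0.18, NFKB2 between -0.21 and -0.050 and RELA between -0.20 and -0.090. At an unadjusted p under 0.05 the genes higher and lower numbered, with 1 animal left out, 34 to 130 and 274 to 2031 in HD* against controls, where VHD 1 to 4, HD 3, Control 5 and Control 8 moved a count by more than 1.5 times. They numbered 20 to 124 and 205 to 649 in LD against controls (LD 1, LD 4, LD 5, LD 7, Control 2, Control 5 and Control 6), 40 to 92 and 31 to 466 in HD* against LD (LD 2, LD 4, LD 5, LD 7, HD 3 and VHD 2 to 4), and 112 to 328 and 183 to 1655 for the slope (LD 1, LD 2, LD 5, LD 7, LD 8, HD 2 and VHD 2 to 4).

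The counts of all genes between VHD and HD (441 higher, 1556 lower) depended most on the setting. They were 1065 higher with TMM (1583 lower), 0 and 0 with all 24 animals in the fit (adjusted p just above 0.05), 1818 and 5795 with array weights, 166 and 440 without the 4 libraries, 3756 lower with striatal markers, and 89 to 679 and 387 to 3972 with 1 animal left out, where leaving out any HD animal, VHD 2 or VHD 3 moved a count by more than 1.5 times. The members' median in that comparison, -0.12, was 0.040 with TMM and -0.68 with striatal markers. Of the 6 pathway genes called between VHD and HD, BCL3 alone remained called without the 4 libraries (-1.23, adjusted p = 0.0322, limma) and with any 1 animal left out. Without the 4 libraries the VHD group was VHD 1 and VHD 2 alone, both of cohort 5. With striatal markers BCL3 was at -0.31 (adjusted p = 0.438, limma). TOLLIP, BTRC, COMMD1 and TICAM1 kept an unadjusted p under 0.05 (limma) in all 9 alternatives, striatal markers among them.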
